A study of Mus musculus with 9 samples.

Results

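Osteoblasts cultured from newborn mouse skull carried RNA of some genes best known from heart and slow-twitch muscle. Of 36 such genes, 9 were called lower on arrays of cells given oestradiol and doxycycline than on arrays of cells given doxycycline alone. Several of these differences were among the largest of all genes tested. A further 14 genes were tested and not called, and 11 had no signal above background on any array. The groups lay on different slides, so slide and oestradiol cannot be told apart. The set holds 36 genes of the heart and slow muscle contractile apparatus, its energy supply, calcium cycling, hormones and transcription factors, which the arrays cover with 50 of their 25697 probes. A gene entered through its symbol in the deposited array table. The genes were chosen by levels measured in the contrast of oestradiol with vehicle, where Myl2, Actc1 and Myl3 had large falls, together with known genes of the same kind, so the values of that contrast are given here as a description, with no test.

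All 9 arrays held RNA of primary newborn mouse calvarial osteoblasts transduced with a lentivirus that expresses RUNX2, the transcription factor that directs osteoblast differentiation, once doxycycline is added. Doxycycline (dox) at 500 ng/ml and oestradiol (E2), the main oestrogen, at 10 nM were given for 48 h in medium without phenol red and with 20% charcoal-stripped serum, which holds little steroid of its own. The groups were dox together with E2 (Dox+E2, 2 arrays, numbered 2 and 3), E2 alone (3 arrays), dox alone (Dox, 2 arrays) and vehicle (Veh, 2 arrays), and the control cells carried the RUNX2 lentivirus as well. The title of the series places the work in the question of how oestrogens act on osteoblasts in which RUNX2 drives osteoclast formation. Whether the arrays of a group hold separate cultures or separate animals is not in the labels, and the spread behind each p-value is that between these arrays, which could be technical.

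Every array with E2 lay on slide 2 and every array without E2 on slide 1, so that slide and E2 cannot be told apart in any comparison across slides. Median deposited signals ran from 158 to 172.1 on slide 2 and from 131.8 to 149.9 on slide 1, and 11554 to 12206 probes per array were above background, meaning a detection p-value under 0.05. Of 8 osteoblast markers on the arrays, 6 were above background on all 9 arrays, among them the collagen genes Col1a1 and Col1a2 and the alkaline phosphatase gene Alpl. Ibsp and Runx2 were below background on all 9, so the Runx2 probe does not check the transgene. Levels below are background-corrected, quantile-normalised log2 intensities, on which the lowest value above background on an array was 5.57 to 5.75. A level of one probe is not set against that of another.

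In striated muscle, thick filaments of myosin pull on thin filaments of actin when calcium binds the troponin complex. Heart and slow-twitch fibres share many isoforms of these proteins, among them the light chains that sit on the myosin neck, and they depend on oxidative metabolism, which myoglobin supplies with oxygen. Promoters of several of these genes are known targets of serum response factor, which binds CArG boxes together with actin-sensing partners, and of TEAD factors, which bind the M-CAT motif CATTCC.

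The promoters of Actc1, Myl3 and Myh6 are shown because these genes encode the actin, a light chain and a heavy chain of one contractile unit, all 3 passed in the comparison of Dox+E2 with Dox, and each window holds a CArG box or an M-CAT motif. Each sequence is RefSeq sequence of the mouse build GRCm38.p6, from 250 bases before to 50 bases after the annotated start, read 5′ to 3′ on the gene's strand, with CArG boxes and M-CAT motifs in capitals. Actc1 lies on the minus strand (chr2:114052826-114053125), Myl3 on the plus strand (chr9:110763428-110763727) and Myh6 on the minus strand (chr14:54966558-54966857).
Actc1: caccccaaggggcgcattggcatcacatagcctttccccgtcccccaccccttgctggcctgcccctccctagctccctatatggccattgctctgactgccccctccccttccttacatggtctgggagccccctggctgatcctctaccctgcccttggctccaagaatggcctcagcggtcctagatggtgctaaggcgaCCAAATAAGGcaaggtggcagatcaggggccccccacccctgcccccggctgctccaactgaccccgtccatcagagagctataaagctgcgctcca
Myl3: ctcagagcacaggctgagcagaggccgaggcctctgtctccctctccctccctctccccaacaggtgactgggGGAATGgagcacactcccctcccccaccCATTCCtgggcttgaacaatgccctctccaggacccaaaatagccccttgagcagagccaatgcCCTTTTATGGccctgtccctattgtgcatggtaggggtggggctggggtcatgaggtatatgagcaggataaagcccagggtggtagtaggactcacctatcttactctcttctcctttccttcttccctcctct
Myh6: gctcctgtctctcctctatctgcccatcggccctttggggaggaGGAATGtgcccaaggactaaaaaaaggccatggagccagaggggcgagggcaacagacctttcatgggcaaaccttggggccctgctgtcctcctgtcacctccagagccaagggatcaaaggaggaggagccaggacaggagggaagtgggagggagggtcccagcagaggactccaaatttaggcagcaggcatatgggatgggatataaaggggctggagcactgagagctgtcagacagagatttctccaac

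The capitals of Actc1 mark a CArG box that begins 47 bases before the start. In Myl3 a CArG box begins 85 bases before the start, and M-CAT motifs lie at 177 and 149 bases before it, the farther one as its reverse complement. In Myh6 the only capitals are an M-CAT motif in reverse complement, 206 bases before the start. Searched on both strands, with no overlap between motifs, a CArG box was found in windows of 5 of the 30 member genes with a window (16.7%: Actc1, Fhl2, Ldb3, Myl3 and Myl7), against 488 of 27025 genes in all (1.81%). Counted by window it was 7 of 38 (18.4%) against 535 of 32851 (1.63%), where 2 overlapping Ldb3 windows hold the same site. An M-CAT motif was in windows of 9 member genes (30%) and of 16.6% of all genes. The MEF2 motif was in 4 member genes (13.3%) and 3.7% of all, the RUNX motif TGTGGT in 8 (26.7%) and 18.9%, and AGGTCA, the core that the oestrogen receptor and other nuclear receptors bind, in 4 (13.3%) and 18.1%. Genes with several windows have more chances of a match. Of the 9 genes that passed in the comparison of Dox+E2 with Dox, 2 had a CArG box, 4 an M-CAT motif, 0 a MEF2 motif, 3 the RUNX motif (Ankrd1, Cox8b and Mb) and 2 AGGTCA (Mb and Myl2). A match is a run of letters in these windows and not a bound site.

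Part of the heart and slow muscle programme was measurable in these cultures and part was not. Of the 36 genes, 23 had a probe above background on at least 2 arrays and were tested, 2 were above it on 1 array only, and 11 had no probe above it on any array. Among the 23, 10 were above background on all 9 arrays. Another 4, Ckmt2, Csrp3, Tcap and Ttn, were above background only on slide 1, so they entered the test through the arrays where they were high, and 0 were above it only on slide 2. The other 19 were above it on arrays of both slides. Of these, Actc1, Myh6, Des and Ldb3 were above it on 1 slide 2 array only, so they too needed slide 1 to be tested.

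The genes without signal were spread unevenly over the roles. Of 5 calcium cycling genes, Ryr2, the calcium release channel, Casq2, the calcium store protein, and Pln and Sln, the peptides that restrain the calcium pump, were below background on all 9 arrays, and only the pump gene Atp2a2, which many cell types express, was above it. None of 3 heart transcription factors was tested, since Tbx5 and Tbx20 were below background throughout and Gata4 was above it on 1 E2 array. Myh7, the slow myosin heavy chain, Myl7, the atrial regulatory light chain, Mybpc3, which binds myosin, Actn2, the Z-disc actinin, and the slow troponin I gene Tnni1 were also below background on all arrays. The heart troponin I gene Tnni3 was above it on 1 E2 array. In contrast, 5 of 5 oxygen and energy genes, 4 of 7 thick filament genes, 2 of 4 thin filament genes, 9 of 10 genes of the Z-disc, titin and desmin, and both natriuretic peptide genes were tested.

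**Figure D1:**
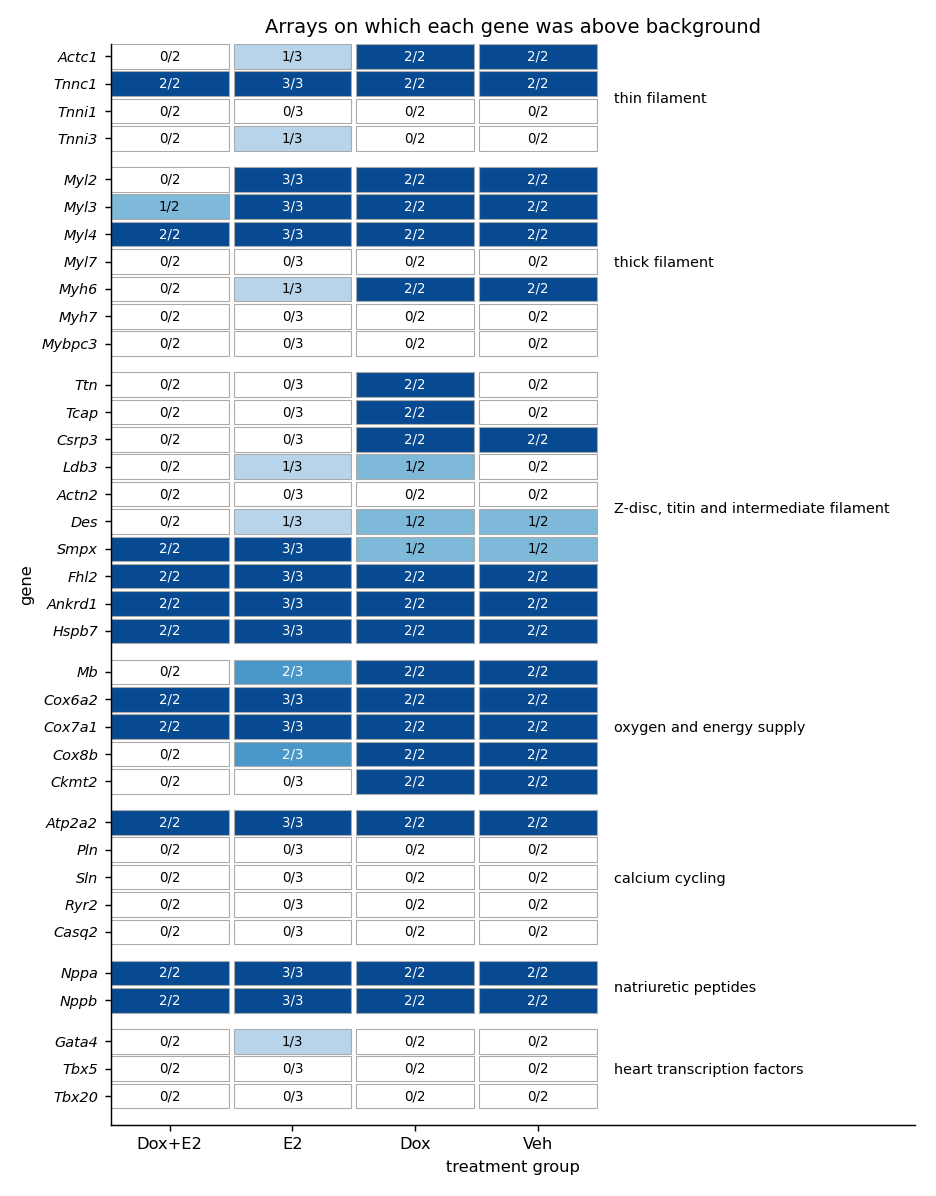
Number of arrays above background for each of the 36 genes in the Dox+E2 (2 arrays), E2 (3), Dox (2) and Veh (2) groups, taken from the gene's best detected probe and ordered by role. Myl2 is above background on 0 of 2 Dox+E2 arrays and on every array of the other groups, and the calcium cycling and transcription factor genes are mostly at 0.

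Counting member genes above background array by array gave 12 and 11 of 36 with Dox+E2, 14, 15 and 20 with E2, 21 and 22 with Dox and 19 and 19 with Veh. The slide 2 counts lay below the slide 1 counts except that of E2 replicate 3. Probes above background over the whole array did not order the samples this way. Their highest number, 12206, was on E2 replicate 1, though their lowest, 11554, was on Dox+E2 replicate 2.

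The thick filament genes showed the widest differences between arrays. Myl2, the regulatory light chain of ventricular and slow-twitch myosin, read 5.41 and 5.57 on the Dox+E2 arrays, 6.19, 6.50 and 7.65 on the E2 arrays, 10.04 and 9.41 on the Dox arrays and 9.69 and 9.47 on the Veh arrays. All 5 slide 2 arrays lay below all 4 slide 1 arrays, and within slide 2 both Dox+E2 arrays lay below the E2 arrays. In the deposited signal, before any background correction, the Myl2 probe stood at 162.4 and 170.7 with Dox+E2, 214.1, 218 and 322 with E2, 1013.1 and 634.9 with Dox and 961.2 and 748.3 with Veh. Myl3, the essential light chain of the same myosins, read 5.96 and 5.23 with Dox+E2, 6.04, 6.43 and 7.11 with E2, 9.41 and 8.68 with Dox and 8.84 and 8.65 with Veh. It had the same split between slides, with 1 of 2 Dox+E2 arrays above background.

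Myh6, the alpha heavy chain that gives heart myosin its fast stroke, had 5.30 and 4.98 with Dox+E2, 5.02, 5.18 and 5.84 with E2, 7.24 and 6.69 with Dox and 6.77 and 6.97 with Veh. On slide 2 only E2 replicate 3 was above background, while all slide 1 arrays were. Myl4, the essential light chain of atrium and embryonic muscle, behaved otherwise. It read 7.45 and 7.56 with Dox+E2, 7.29, 7.84 and 7.58 with E2, 7.61 and 7.36 with Dox and 7.76 and 7.67 with Veh. The E2 arrays alone spanned all the others, and there was no split between slides.

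Of the thin filament genes, Actc1, the actin of heart muscle, had 5.14 and 4.91 with Dox+E2, 5.34, 5.00 and 5.63 with E2, 7.99 and 7.36 with Dox and 7.91 and 7.48 with Veh. Only E2 replicate 3 reached background on slide 2, and a second Actc1 probe was below background on all 9 arrays. Tnnc1, the calcium-binding troponin of heart and slow muscle, was above background everywhere, at 8.43 and 8.29 with Dox+E2, 8.46, 8.50 and 8.43 with E2, 9.26 and 8.87 with Dox and 9.02 and 8.76 with Veh. Its slides did not overlap either, though the gap was narrow.

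Mb encodes myoglobin, which binds oxygen in heart and slow fibres. It read 5.32 and 5.31 with Dox+E2, 6.32, 5.44 and 6.74 with E2, 8.58 and 8.26 with Dox and 8.11 and 7.95 with Veh. Its second probe was above background on the 4 slide 1 arrays alone, at 4.82 and 5.27 with Dox+E2, 5.31, 5.23 and 5.31 with E2, 7.44 and 6.37 with Dox and 7.32 and 6.79 with Veh. Both Mb probes thus placed every slide 2 array below every slide 1 array.

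Cox7a1 and Cox8b encode heart and muscle forms of cytochrome oxidase subunits. Cox7a1 stood at 6.35 and 6.08 with Dox+E2, 6.67, 6.80 and 7.19 with E2, 7.87 and 7.76 with Dox and 7.47 and 7.65 with Veh. Cox8b stood at 5.08 and 5.12 with Dox+E2, 5.22, 5.69 and 5.90 with E2, 7.26 and 6.60 with Dox and 6.86 and 6.85 with Veh. For Cox7a1 the Dox+E2 arrays were the lowest and the E2 arrays came next, and for Cox8b the order was the same, with both Dox+E2 arrays below background.

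Ankrd1, a stress-responsive titin-associated protein and a common TEAD target, had 10.08 and 10.05 with Dox+E2, 10.00, 10.18 and 10.01 with E2, 10.82 and 10.67 with Dox and 10.63 and 10.80 with Veh. The 5 slide 2 arrays lay together below slide 1, and Dox+E2 and E2 arrays were mixed among themselves. Fhl2, a LIM protein of the Z-disc that many cell types express, covered 11.36 to 11.53 over all 9 arrays with no order by group.

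**Figure D2:**
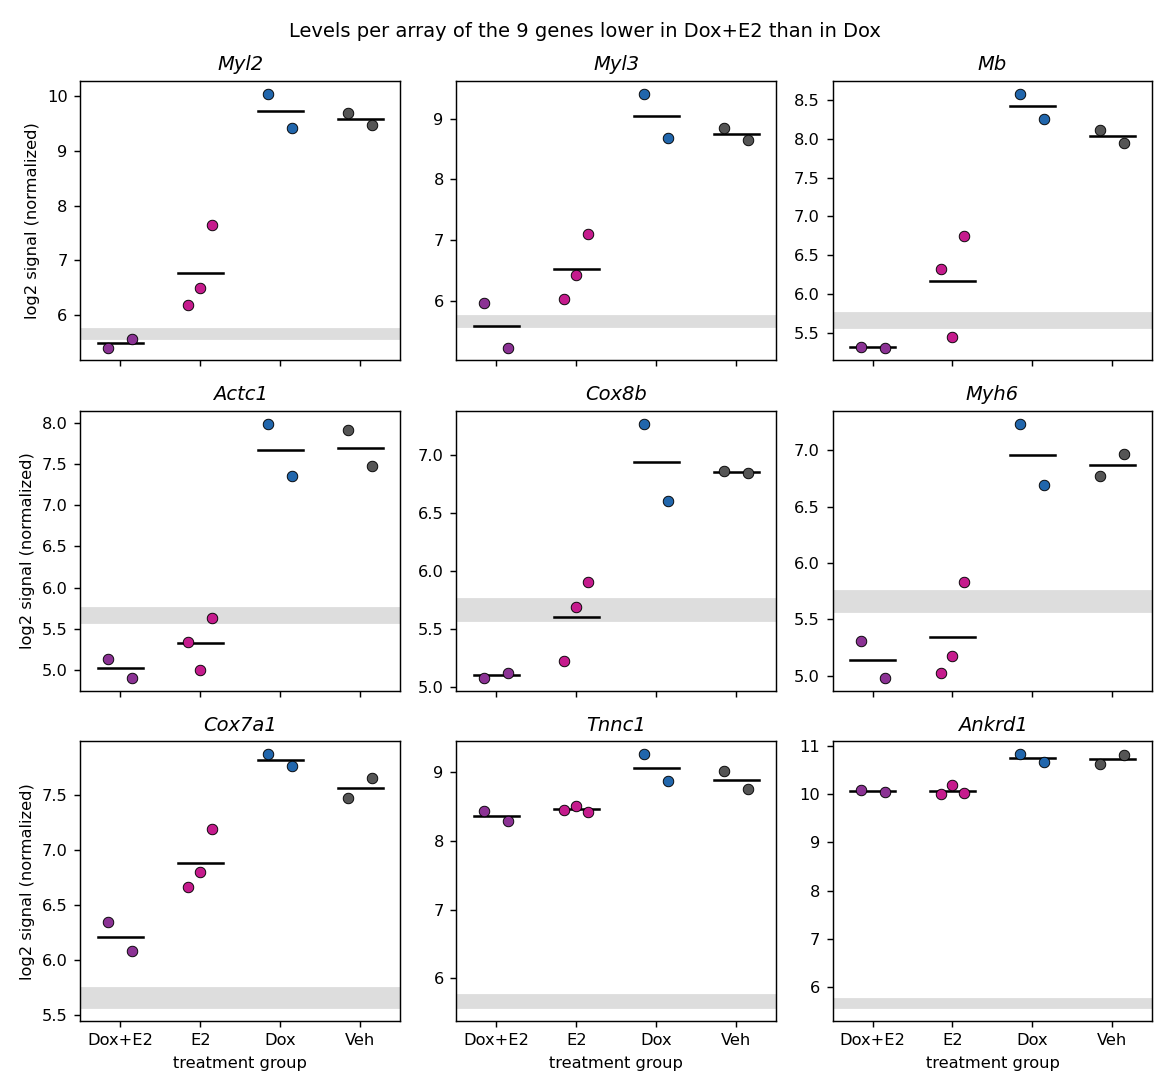
Normalized log2 intensity (vertical axis, a separate scale for each gene) of the 9 genes lower in Dox+E2 than in Dox, on each array of the Dox+E2, E2, Dox and Veh groups, where a point is 1 array, a bar the group mean and the grey band the lowest log2 values above background (5.57 to 5.75 over the arrays). All 5 arrays with E2 sit below all 4 arrays without E2 in every panel, and the Dox+E2 arrays of Myl2, Mb, Actc1, Cox8b and Myh6 are at or under the band.

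Dox+E2 against Dox asks what accompanied E2 in cells given dox. Its 4 arrays are not those in which the genes were noticed, but it too sets slide 2 against slide 1, and the spread in the fit is estimated over all 9 arrays. Of the 36 genes, 9 passed an adjusted p under 0.05, all 9 lower with Dox+E2, and 0 were higher, while over all 9490 genes tested 20 were lower (0.211%) and 2 higher (0.0211%). Members therefore made up 9 of the 20 lower genes (45%), against 0.242% of genes tested. They took the 4 lowest ranks by log2 difference and 7 of the lowest 10. The genes were chosen on other arrays, but across the same split of slide and E2. A difference between slides would carry over, so these shares and ranks describe the members and are not support. Actc1 and Myh6, among the 9, needed slide 1 to be tested.

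Myl2 had the largest fall of any gene tested, at least 16.4-fold lower with Dox+E2 (log2 difference -4.24 ± 0.29, standard error, n = 2 and 2, adjusted p = 1.07e-09). "At least" marks genes whose Dox+E2 arrays were all below background. Myl3 was 10.9-fold lower (-3.45 ± 0.27, adjusted p = 1.69e-08), with 1 of 2 Dox+E2 arrays above background, and 9.50-fold lower with the other set at that array's lowest value above background. Myh6 was at least 2.41-fold lower (-1.82 ± 0.28, adjusted p = 0.0011). With Myl4 at 0.02 ± 0.18 (adjusted p = 0.983), 3 of the 4 tested thick filament genes fell. Both tested thin filament genes fell: Actc1 was at least 3.95-fold lower (-2.65 ± 0.26, adjusted p = 8.91e-07) and Tnnc1 1.63-fold lower (-0.71 ± 0.14, adjusted p = 0.0232).

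Of the 5 oxygen and energy genes, 3 fell. Mb was at least 6.62-fold lower (-3.10 ± 0.27, adjusted p = 9.87e-08), Cox8b at least 2.37-fold lower (-1.84 ± 0.27, adjusted p = 0.000521) and Cox7a1 3.02-fold lower (-1.60 ± 0.20, adjusted p = 4.21e-05). Cox6a2, the muscle form of another cytochrome oxidase subunit, was above background on all arrays and differed by -0.43 ± 0.12 (adjusted p = 0.142). Ckmt2, the sarcomeric mitochondrial creatine kinase, differed by -0.77 ± 0.30 (adjusted p = 0.337). Its Dox+E2 arrays, at 5.04 and 5.19, were below background and its Dox arrays read 5.90 and 5.87. A second Ckmt2 probe, also above background on slide 1 alone, read 4.94 and 4.76 with Dox+E2 and 6.79 and 6.06 with Dox. Ckmt2 passed, as lower, where every kept probe was tested.

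Of 9 tested genes of the Z-disc, titin and desmin, Ankrd1 fell, 1.61-fold (-0.68 ± 0.10, adjusted p = 0.000521). Csrp3, a muscle LIM protein of the Z-disc, read 4.84 and 4.80 with Dox+E2 and 6.30 and 5.78 with Dox, which gave -1.21 ± 0.29 (adjusted p = 0.076). The giant spring protein gene Ttn gave -0.73 ± 0.31 (adjusted p = 0.363) and Tcap, which caps titin, -0.62 ± 0.30 (adjusted p = 0.45), in each case with both Dox+E2 arrays below background. The small chaperone gene Hspb7 gave -0.41 ± 0.22, the Z-disc scaffold gene Ldb3 -0.21 ± 0.31, the intermediate filament gene Des -0.14 ± 0.27, Smpx -0.07 ± 0.26 and Fhl2 0.05 ± 0.09, with adjusted p from 0.528 to 0.953. The calcium pump gene Atp2a2 read 10.51 and 10.65 with Dox+E2 and 10.99 and 10.87 with Dox, a difference of -0.35 ± 0.09 (adjusted p = 0.118).

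The natriuretic peptide genes encode hormones that a loaded heart releases. Nppa read 6.57 and 6.28 with Dox+E2, 6.06, 7.03 and 6.28 with E2, 8.07 and 7.18 with Dox and 6.58 and 8.56 with Veh, and the Veh arrays alone spanned nearly the whole range. Its difference between Dox+E2 and Dox was -1.20 ± 0.39 (adjusted p = 0.245). Nppb read 7.05 and 7.03 with Dox+E2 and 8.17 and 7.42 with Dox, a difference of -0.76 ± 0.21 (adjusted p = 0.142), with Dox replicate 1 well above the rest.

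**Figure D3:**
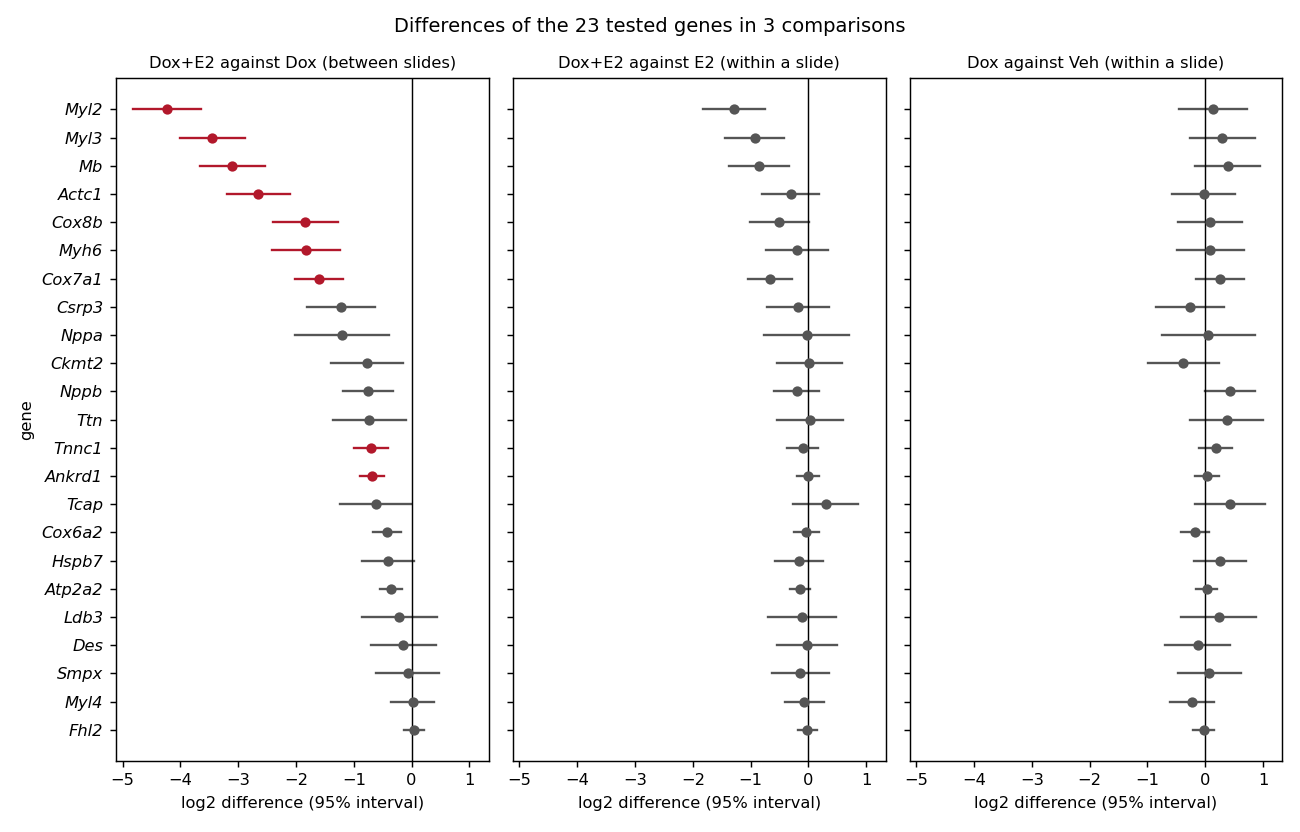
Log2 difference of each tested gene, with its 95% interval, in Dox+E2 against Dox (between slides), Dox+E2 against E2 and Dox against Veh (each within a slide), with genes in the order of the first panel and in red where the adjusted p is under 0.05. Myl2 has the largest fall in Dox+E2 against Dox, at -4.24, whereas the Dox against Veh values lie between -0.38 and 0.43.

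Over the 23 tested genes the median difference of Dox+E2 against Dox was -0.73, against -0.0015 over all 9490 genes, with 21 negative and 2 positive. The groups did not overlap and were lower with Dox+E2 for 18 of the 23, against 20.4% of all genes, and overlapped for 5. The median and counts include the 4 genes that were above background on slide 1 alone. They also include Actc1, Myh6, Des and Ldb3, which needed slide 1 to be tested. In these bulk samples fewer cells with such RNA and less of it per cell cannot be told apart.

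The count of 9 depended on single arrays and on the variance prior. It was 6 without Dox replicate 1, 11 without Dox replicate 2, 7 without Dox+E2 replicate 3 and 5 with no intensity trend, and Myl2, Myl3, Mb, Actc1 and Cox7a1 passed in each of these. Over all genes, 10 were lower without Dox replicate 1, 62 without Dox replicate 2, 10 without Dox+E2 replicate 3 and 6 with no intensity trend. Without background subtraction the differences were smaller, at -2.63 for Myl2, -2.01 for Myl3, -1.62 for Mb and -1.24 for Actc1.

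Between E2 and Veh, the contrast that led to the choice of genes, the differences ran the same way for most members and are given without a test. Myl2 was 6.98-fold lower with E2 (-2.80), Actc1 5.17-fold (-2.37), Myl3 4.65-fold (-2.22), Mb 3.63-fold (-1.86), Myh6 2.88-fold (-1.53) and Cox8b 2.38-fold (-1.25). Of the 3 E2 arrays, 1 was above background for Actc1 and Myh6 and 2 for Mb and Cox8b. With the others set at their array's lowest value above background, the folds were 4.21 for Actc1, 3.45 for Mb, 2.27 for Myh6 and 2.19 for Cox8b. Csrp3 was at least 1.60-fold and Ckmt2 at least 1.57-fold lower, since no E2 array was above background for either. Tnnc1 (-0.42), Cox6a2 (-0.57), Ankrd1 (-0.65) and Cox7a1 (-0.68) differed less, and Tcap and Ttn were below background in both groups. Smpx (0.15), Ldb3 (0.14), Fhl2 (0.04) and Hspb7 (0.02) were slightly positive, with overlapping groups. Nppa differed by -1.12 with overlapping groups, and Des (-0.25), Atp2a2 (-0.18), Myl4 (-0.14) and Nppb (-0.13) differed little. The E2 arrays lay below both Veh arrays for 14 of the 23, as they did for 19.6% of all genes, and above them for 0, as for 14.7%, from which nothing is read, since these values chose the genes. The median of the 23 was -0.57, against -0.0161 over all genes.

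For 13 of the 23 tested members, every slide 2 array lay below every slide 1 array, and for 0 the reverse, while 3.85% of all genes were lower and 2.58% higher in that way. This count uses the E2 and Veh arrays on which the genes were chosen. It includes Ckmt2 and Csrp3, tested through slide 1 alone, and Actc1 and Myh6, which needed slide 1 to be tested. The count therefore describes the members and supports nothing. All 9 genes that passed in Dox+E2 against Dox were among the 13. Across those 9 genes, Dox replicate 1 was the highest slide 1 array every time. The lowest slide 1 array was Dox replicate 2 for 4 genes, Veh replicate 2 for 3 and Veh replicate 1 for 2. On slide 2 the highest array was E2 replicate 3 for 7 genes and E2 replicate 2 for 2, and the lowest was Dox+E2 replicate 3 for 6, Dox+E2 replicate 2 for 2 and E2 replicate 1 for 1.

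Dox against Veh, within slide 1, asks what dox did without E2. All cells carried the RUNX2 lentivirus, so RUNX2 induction and any other action of dox cannot be told apart. This comparison shares its Veh arrays with the contrast that led to the choice. None of the 36 genes passed in limma, as against 3 of 9490 genes (0.0316%), and 0 of the 23 tested members had an unadjusted p under 0.05, against 6.77% of all genes. Differences ran from -0.38 for Ckmt2 to 0.43 for Tcap, and the groups overlapped for 16 of 23, with 2 lower and 5 higher, against 21.2% lower and 16.9% higher over all genes. Tcap and Ttn, among the 5 higher, were above background on the 2 Dox arrays alone and were tested only through them. Ldb3, also among the 5, was below background on both Veh arrays. Nothing is read from the order of these genes. The smallest adjusted p was 0.733. Myl2 differed by 0.14 and Actc1 by -0.02 (95% intervals -0.45 to 0.73 and -0.57 to 0.52).

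Dox+E2 against E2, within slide 2, asks the same in the presence of E2 and shares the E2 arrays with the contrast that led to the choice. Again 0 members passed, beside 7 of 9490 genes (0.0738%), all higher. Myl2 was nearest the threshold and had the lowest log2 difference of any gene, at least 2.13-fold lower with Dox+E2 (-1.29 ± 0.26, adjusted p = 0.0531). Over the alternative settings and left-out arrays its adjusted p ran from 0.000785 to 0.743, and it passed without E2 replicate 1 (0.000785) or 2 (0.0482), without Dox replicate 1 (0.0204) or 2 (0.0173) and with the replicate number as a block (0.0383). Myl3 differed by -0.93 ± 0.25 (adjusted p = 0.345), Mb by -0.85 ± 0.25 (adjusted p = 0.433) and Cox7a1 by -0.67 ± 0.18 (adjusted p = 0.346). These 4 had an unadjusted p under 0.05, all lower, where 6.23% of all genes did. The Dox+E2 arrays lay below the E2 arrays for 7 members, above for 1 and among them for 15, against 10.1% lower and 10.7% higher over all genes. Csrp3, among the 7, and Tcap, the 1 above, were below background on all arrays of both groups. Their order is therefore not read.

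Whether the dox effect differed with E2 was tested as the difference of these effects. A shift that adds the same log2 amount to all arrays of a slide cancels in it. For Myl2 the difference was -1.43 ± 0.39, for Mb -1.24 ± 0.37, for Myl3 -1.23 ± 0.37 and for Cox7a1 -0.92 ± 0.27. Myl2 and Mb were below background on both Dox+E2 arrays and Myl3 on 1 of 2, where a slide shift need not be equal. None of the members passed, as against 0 of 9490 genes, and the smallest adjusted p of a member was 0.638. With 5 members, all lower, an unadjusted p was under 0.05, against 6.87% of all genes. Over all dox arrays against arrays without dox, with slide as a block, 0 members passed, beside 1 lower (0.0105%) and 10 higher (0.105%) genes among 9490, and Myl2 differed by -0.64 ± 0.23 (adjusted p = 0.748).

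Genes outside the set were read in the same comparison. Of 38 other heart muscle genes, 35 were on the arrays and 16 were tested, and 1 of these fell between Dox+E2 and Dox while 0 rose, with a median of -0.30. That 1 was Fabp3, the fatty acid carrier of heart and slow muscle, which read 7.00 and 6.93 with Dox+E2, 6.89, 7.30 and 7.36 with E2, 8.26 and 7.94 with Dox and 7.71 and 7.96 with Veh (-1.13 ± 0.19, adjusted p = 0.00222). It thus had the split between slides that Myl2 and Mb had. Of the transcription factors and cofactors in this list, Nkx2-5, Hand1, Hand2, Isl1, Irx4 and Hopx were below background on all 9 arrays, while Gata6, Mef2c, Mef2d and Srf had a probe above it on all 9. No Myocd probe was above it on more than 1 array. Srf, which encodes serum response factor, differed by -0.43 ± 0.10 (adjusted p = 0.0631).

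Among 7 tested of 30 skeletal muscle genes, 0 passed in either direction, with a median of -0.22, and Myod1, the master factor of skeletal muscle, was below background throughout. Of 12 smooth muscle genes 9 were tested and 0 passed, with a median of 0.01. The summed level of the smooth muscle list was 49480 to 51120 with Dox+E2 and 47250 to 47910 with Dox. Among 17 tested non-muscle counterparts of the members, such as the cytoplasmic actin gene Actb and the ubiquitous Cox6a1, 0 passed and the median was 0.09.

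Markers of other cells that a calvarial culture could hold did not pass in any list. Of 5 markers each, 2 endothelial, 2 macrophage, 1 adipocyte and 4 chondrocyte genes were tested, and no epicardial or mesothelial gene was. Of the endothelial list, Pecam1, Cdh5 and Emcn were below background on all arrays, and Tek was above it on 6 and Kdr on 2. Of the macrophage list, Cd68, Csf1r and Adgre1 were below it on all arrays, and Cd14 was above it on 8 and Lyz2 on 6. Of the adipocyte list, Adipoq, Fabp4, Cfd and Plin1 were below it on all arrays, and Pparg was above it on all 9. The chondrocyte list had clear signal: Sox9, Acan and Col2a1 were above background on all 9 arrays. The brighter Col2a1 probe read 14.32 to 14.67 over the arrays. Col9a1 was above background on 4 arrays and Matn1 was below it on all. In Dox+E2 against Dox the 6 tested osteoblast markers had a median of -0.02 with 0 called. Their list summed to 88610 to 89150 with Dox+E2 and 92150 to 96330 with Dox. With E2 the sum was 90480 to 92150 and with Veh 95900 to 96340. The mean log2 level of that list was 10.39 and 10.42 with Dox+E2 and 10.36 and 10.44 with Dox. Within slide 2, 2 of the 6 markers were called higher in Dox+E2 against E2, beside 7 of 9490 genes. In dox arrays against arrays without dox, 2 were called higher, beside 10 of 9490 genes. The part of cell composition in the falls was not tested.

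Dox replicate 2 parted from the other slide 1 arrays for the immediate early genes. For the 9 passing members it lay above every slide 2 array, though it was the lowest slide 1 array for 4 of them. Fos, a serum-responsive transcription factor, read 7.32 and 7.33 with Dox+E2, 7.27, 7.12 and 7.18 with E2, 10.41 and 7.52 with Dox and 10.06 and 10.23 with Veh. Egr1, another, read 11.76 and 11.69 with Dox+E2, 11.75, 11.81 and 11.70 with E2, 13.78 and 12.23 with Dox and 13.71 and 13.88 with Veh. On both genes Dox replicate 2 stood near slide 2, whereas its Myl2 level of 9.41 stood with slide 1. Without that array 11 members passed in Dox+E2 against Dox, with Csrp3 (adjusted p = 0.0411) and Nppb (adjusted p = 0.00754) added.

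**Figure D4:**
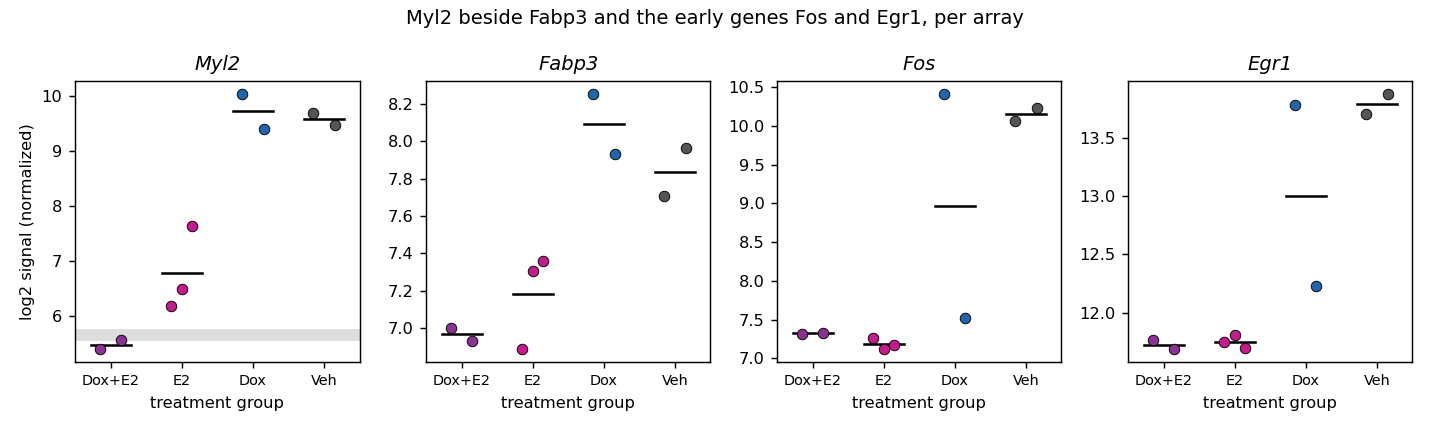
Normalized log2 intensity of Myl2, Fabp3, Fos and Egr1 on each array of the Dox+E2, E2, Dox and Veh groups, where a point is 1 array and a bar the group mean. Dox replicate 2 lies near the arrays with E2 for Fos (7.52) and with the arrays without E2 for Myl2 (9.41).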

How the data were processed

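RNA of 9 samples of mouse calvarial osteoblasts was measured on Illumina bead arrays. Per the file headers, the deposited table gives for each of 25697 probes an average bead signal, a linear intensity that the authors left without background subtraction or scaling, and a detection p-value, which moves in steps of 1 in 798. GenomeStudio 2011.1 was used, per the submitters' processing notes. A second deposited table holds intensities scaled by the authors, equal to a quantile normalization of the first within 0.515%, and served as an alternative. Probe sequences, and the build they were designed on, are not given in the sources used here. Symbols were updated with RefSeq (GRCm38.p6): 20733 probes had a current symbol, 3872 were renamed and 1092 kept theirs.

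Background correction (normexp, with the noise estimated from detection p-values), quantile scaling and a log2 transform after adding 16 were run with neqc (limma 3.58.1, R 4.3.3). The added 16 shrinks differences of dim probes. A probe was used where 2 or more arrays had a detection p under 0.05 (12912 probes), and the probe with the highest mean stood for each of 9490 genes. Samples were grouped by their titles. All 9 arrays were fitted in limma with a mean per group and an intensity trend, two-sided, with Benjamini-Hochberg adjustment over all 9490 genes. The number of arrays limits the precision. Where a probe was below background on all arrays of a group, the fold is a bound, taken on each such array against the higher of the lowest value above background and the probe's own value. The fit was tested on simulated data. Alternatives were no background correction, the authors' scaled values, an offset of 50, other detection filters, other probe rules, no intensity trend, the replicate number as a block, no slide term and each array left out. Members and gene lists were chosen with earlier results of these data known. Named genes were all 36 members, and of other lists those past the threshold in Dox+E2 against Dox, up to 4 each by smallest p. Srf, Fos, Egr1, the transcription factors and the cell markers were named after their values were seen. Promoter windows came from RefSeq and matched 30 of the 36 genes. Plots and motif searches used Python 3.11.15, with matplotlib 3.10.9.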

Additional observations from a re-analysis of the deposited data

How the results depend on the processing

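In Dox+E2 against Dox the 9 members lower became 5 with no intensity trend in the variance prior, where Ankrd1 (adjusted p = 0.114), Cox8b (0.0781), Myh6 (0.114) and Tnnc1 (0.204) no longer passed, and over all genes the lower calls were 6 in place of 20. Leaving out each array in turn gave 6 to 11 members. Without Dox replicate 1 it was 6, with Cox8b (0.0597), Myh6 (0.0787) and Tnnc1 (0.382) lost, and without Dox+E2 replicate 3 it was 7, with Myh6 (0.0779) and Tnnc1 (0.205) lost. Without Dox+E2 replicate 2 Tnnc1 alone was lost (0.129). Over all genes, leaving out arrays moved the lower calls between 10 and 62. Where this left a group with 1 array, that array is assumed to vary like the others. The remaining alternatives gave 8 to 10 members: Tnnc1 was lost with no detection filter (0.0574) and with the replicate number as a block (0.427), Csrp3 was added on quantile-normalized values without background correction (0.0175) and on the authors' scaled values (0.0173), and Ckmt2 was added where every kept probe was tested. Single-gene values in this comparison were on the same side of the threshold in 141 of 157 recomputations, and 0 changed direction.

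In Dox+E2 against E2 the count of 0 members became 1 with the replicate block (Myl2, adjusted p = 0.0383) and 0 to 2 with an array left out, with Myl3 (0.0295) added without E2 replicate 1 and Mb (0.00956) without E2 replicate 2. The other 3 comparisons had 0 members in all settings run. The block moved the lower calls over all genes in Dox+E2 against Dox to 12. Deviations of arrays with the same number correlated at -0.06, 0.03 and -0.10 over 9490 genes. Those values gave no sign of pairing, but they cannot show what the numbers mark. The median member difference of E2 against Veh was -0.57, ran from -0.61 to -0.50 with an array left out and was -0.19 with no detection filter, which adds 13 genes near or below background. Signal over background limits Myl2, Mb, Actc1, Cox8b and Myh6 with Dox+E2 to bounds, and 1 of 2 Myl3 values there was below background.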
